A study of Mus musculus with 4 samples.

Results

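Peroxisomes are small organelles bounded by a single membrane, in which very long chain and branched fatty acids are shortened by beta-oxidation and the hydrogen peroxide that this makes is broken down by catalase. Fatty acyl groups enter through transporters of the ABCD family, and the enzymes are made in the cytosol and imported by receptors that recognise short signals in their sequence. In brown fat, a depot that burns lipid to make heat, peroxisomes are abundant and take part in the lipid handling that accompanies thermogenesis. The 9 genes described here cover these steps: the transporters Abcd2 and Abcd3, the beta-oxidation enzymes Ehhadh, Hsd17b4, Acaa1a and Scp2, the peroxide-degrading enzyme Cat, and the assembly factors Pex5 and Pex16. They were chosen by gene symbol, and each matched 1 of the 22481 symbols in both deposited tables. All 9 were among the 16217 genes tested, which had a mean level of at least 1 scaled CPM (counts per 1000000 on the authors' own scaling) over the 4 libraries.

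The study recovered RNA from mouse brown adipose tissue with an antibody against FAM172A (IP) or with control immunoglobulin (IgG), to find transcripts bound by that protein. There were 4 libraries in 2 pairs, with 1 IP and 1 IgG library in each. The pair titled WT-cold-BAT carries the label cold and is called the first pair. The WT4 pair, titled BAT-WT4, has no such label. Temperature, time, age and sex are not given in the sources used here, WT is taken only as it stands in the titles, and no label says whether a library holds 1 animal or several. The table columns of the first pair name IP and IgG only, so they were tied to these titles by elimination.

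Library size was 6633653 fragments for IP and 5587297 for IgG in the first pair, but 1631884 and 360369 in WT4. In the WT4 IgG library 1 fragment was worth 2.50 scaled CPM, and a count of 0 allows up to 7.50 scaled CPM (3 fragments, counting error only). The median log2 ratio of IP over IgG over all genes tested was -0.03 for the first pair but 1.17 for WT4, and single genes are read beside these values. The WT4 median was lower at the levels of the 9 genes, whose means ran from 15.8 to 362 scaled CPM. It was 0.46 for genes with a mean of at least 100 scaled CPM and 0.22 for those of 10 to 100. Over genes with fragments in all 4 libraries it was 0.08. Brown adipocyte markers (8 genes, none at 0 in any library) summed to 13396 (IP) and 12392 scaled CPM (IgG) for the first pair, then to 7276 and 3456 for WT4. The sums do not stand for each marker: 6 were higher in IP and 2 lower in the first pair. In WT4, 7 were higher and Cidea was lower (log2 ratio -0.34). In bulk tissue, fewer cells of a type and less RNA per cell cannot be told apart.

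The enzymes among the 9 reach the peroxisome interior by an import signal that can be read in the transcript. The ends of the coding sequences of 3 enzymes and the start of the thiolase Acaa1a are shown because they encode such signals. The genes were chosen as peroxisomal, so the signals are background and not a result of these data. Hsd17b4 is not shown. They are from GENCODE vM21 transcripts (GRCm38), written 5′ to 3′. In the first 3 lines capitals mark the last 3 codons before the stop codon, which encode the C-terminal tripeptide read by Pex5. In the Acaa1a line they mark codons 3 to 11, which encode the N-terminal signal read by the other import receptor, Pex7.
Ehhadh: ttggcaggaccccatagcAGCAAACTGtga
Scp2: cagcttcagccgggcaaaGCTAAGCTGtga
Cat: atggctgcgaagggaaaaGCTAACCTGtaa
Acaa1a: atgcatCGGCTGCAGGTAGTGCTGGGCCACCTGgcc
The 3 C-terminal endings share the last codon CTG, Scp2 and Cat also share the first capital codon, and the middle codon differs in each. The middle codons of Ehhadh and Scp2 both encode lysine, and that of Cat does not.

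The ratios of most of the 9 genes went opposite ways in the pairs. In the first pair 8 of the 9 transcripts had a lower level in IP than in IgG, against 51.2% of all genes tested, and in the WT4 pair 8 of 9 had a higher level in IP, against 65.8% of all genes tested. The log2 ratio was below 0 in the first pair and above 0 in WT4 for 7 of the 9, against 34.3% of all genes tested. That count was 6 in FPKM, with TMM factors and with total fragments, and 4 when centred on the median of all genes (24.8% of all genes), and it was not tested. Of the 16217 genes, 8295 were below 0 and 5617 above it in the first pair, and the rest had a ratio of exactly 0. None of the 9 was at exactly 0, so the 51.2% and 34.3% would be larger over genes that have a sign. Abcd3 was higher in IP in both pairs and Cat lower in both, under every scaling, pseudocount and unit tried. With TMM factors the first-pair ratio of Pex5 turned above 0 (0.02). The WT4 ratio turned below 0 for Pex5 with total fragments (-0.11), for Scp2 in FPKM (-0.19), and for Scp2 (-0.49), Acaa1a (-0.34) and Pex5 when centred on the median of all genes. The members' median log2 ratio was -0.37 for the first pair but 1.88 for WT4, a mean of 0.75 ± 1.60 (SD, n = 2 pairs), so the spread between pairs was larger than the mean. Summed over the 9 genes, the level was 1618 scaled CPM in IP and 1865 in IgG for the first pair, then 1311 and 647 for WT4. In scaled CPM, which sets separately normalized tables side by side, the WT4 IgG library held the lowest value for every member except Cat, and in FPKM for every member except Cat and Scp2. The share of all genes with their lowest value in that library was not computed, and 43% of all genes tested were at 0 there.

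Counts past a 2-fold line were read against all genes, since 1 library per fraction allows no test within a pair. In the first pair 0 of 9 were at least 2-fold higher in IP (13.3% of all genes tested) and 2 were at least 2-fold lower (26.9% of all genes). In the WT4 pair 5 were at least 2-fold higher (51.6% of all genes) and 0 were 2-fold lower (19.3% of all genes). None of the 9 was 2-fold higher in both pairs (7.19% of all genes) or 2-fold lower in both (5.25% of all genes). On scaled CPM Abcd2 was the 1 member 2-fold lower in the first pair and 2-fold higher in the WT4 pair, as were 14.6% of all genes. With TMM factors Acaa1a met this too (-1.28 and 1.10), and in FPKM Acaa1a (-1.82 and 1.60) and Pex16 (-1.16 and 4.41) met it while Abcd2 did not (-0.91 and 1.70). Each of these counts on scaled CPM lies within 2 genes of what the same share of all genes would give among 9, so none is a result about these genes.

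**Figure D1:**
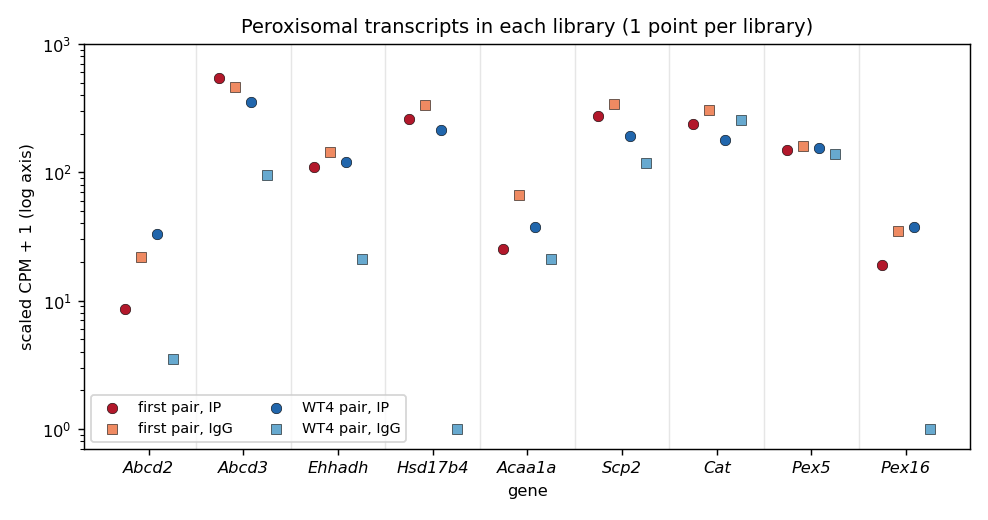
Level of each gene in the 4 libraries, as scaled CPM plus 1 on a log axis, with 1 point per library (circles IP, squares IgG; red the first pair, blue the WT4 pair). The WT4 IgG square is the lowest of the 4 points for every gene except Cat, and it lies at 0 scaled CPM for Hsd17b4 and Pex16. The share of all genes with their lowest value in that library was not computed.

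With the pair as a block, edgeR's quasi-likelihood test over both pairs called 0 of the 9 genes after Benjamini-Hochberg adjustment over all genes (adjusted p = 1.0 for each). It called 1 of all genes tested, or 0.00617%, which was the mitochondrially encoded mt-Atp6, named here after its value was seen. At an unadjusted p under 0.05, edgeR listed 235 of all genes, among them Hsd17b4 (edgeR, unadjusted p = 0.0101) and no other member. DESeq2 and limma called 0 of the 9 as well, with smallest adjusted p of 0.971 and 0.760. The common dispersion of the edgeR fit was 1.47 and 1 residual degree of freedom was left. Left without the WT4 IgG library, in a fit that has no pair block, the fold changes of all 7 members that had been above 0 turned negative. That fit sets the IP libraries of both pairs against the IgG library of the first pair alone. It thus compares tables that were normalized separately, and even Abcd3, higher in IP within each pair, turned negative in it. For Hsd17b4 the log2 fold change was 2.37 with the block, 0.49 without the block on all 4 libraries, and -0.49 without the WT4 IgG library.

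The transporters come first. Abcd3 (ENSMUSG00000028127, chromosome 3, 121758774 to 121815302, minus strand), which carries branched and dicarboxylic acyl groups into the peroxisome, had the highest mean level of the 9 in scaled CPM, at 362. It gave 3553 fragments in IP and 2600 in IgG for the first pair, then 524 and 38 for WT4. The IP library was thus the higher in each pair, by little in the first and by more in WT4. Its log2 ratio stood above that of 71.9% of all genes tested in the first pair and of 56.7% in WT4. IP over IgG was 1.16 for the first pair (95% interval of 1.11 to 1.22 from the exact binomial, counting error only) and 3.72 for WT4 (2.67 to 5.31). Its edgeR log2 fold change was 1.04 (unadjusted p = 0.0867, adjusted p = 1.0). Its FPKM told the same order, with 117 in IP and 100.3 in IgG for the first pair, then 56.0 and 14.5 for WT4.

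Abcd2 (ENSMUSG00000055782, chromosome 15, 91145871 to 91191799, minus strand), the transporter for very long chain acyl groups that fat tissue expresses, had the lowest mean level of the 9, at 15.8 scaled CPM. It gave 50 fragments in IP and 117 in IgG for the first pair, then 48 and 1 for WT4. The order of the fractions was therefore opposite in the pairs. The ratio was 0.364 (0.256 to 0.511) for the first pair but 12.9 (2.21 to 522) for WT4, an interval whose width comes from that 1 IgG fragment. Its log2 ratios were -1.35 and 3.25, above those of 22.0% and 74.4% of all genes tested. Its mRNA is the longest of the 9 models, at 5532 bases, of which 3115 lie in the 3′ untranslated region.

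Of the beta-oxidation enzymes, Ehhadh (ENSMUSG00000022853, chromosome 16, 21761287 to 21787807, minus strand) is the bifunctional enzyme that hydrates and then dehydrogenates straight chain acyl-CoAs and carries the serine, lysine and leucine codons shown above. It gave 724 fragments in IP and 804 in IgG for the first pair, then 176 and 8 for WT4. The 3 other libraries lay between 109.7 and 143 scaled CPM, and the WT4 IgG library stood apart at 20.0. The ratio of IP over IgG was 0.766 (0.692 to 0.848) and then 5.93 (2.94 to 14.0).

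Hsd17b4 (ENSMUSG00000024507, chromosome 18, 50128201 to 50196269, plus strand), the second bifunctional enzyme, which handles branched and very long chain substrates, was listed at 0 in the WT4 IgG library. It gave 1724 fragments in IP and 1870 in IgG for the first pair, then 316 and 0 for WT4. The WT4 ratio was 28.4-fold against a floor of 3 fragments in that IgG library, with an exact binomial lower limit of 23.0. The first pair's was 0.785 (0.735 to 0.838). With that 0, a log2 ratio for WT4 follows the number added, from 5.45 with 5 added to 11.06 with 0.1 added. Only a bound can be given, and it holds only if the 0 is a true count. The 0 was in 1 library only: the other 3 held 261, 333 and 213 scaled CPM. Among the 847 genes with a mean of at least 200 scaled CPM in the other 3 libraries, 15 (1.77%) were listed at 0 in the WT4 IgG library. A value listed at 0 can be a failed estimate, which was not tested.

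Acaa1a (ENSMUSG00000036138, chromosome 9, 119339676 to 119350299, plus strand), the thiolase of the last step, gave 160 fragments in IP and 367 in IgG for the first pair, then 54 and 8 for WT4. The ratio was 0.371 (0.306 to 0.448) and then 1.82 (0.861 to 4.43), an interval that includes 1. In FPKM the split was wider, with 8.67 in IP and 33.1 in IgG for the first pair, then 10.8 and 2.89 for WT4. The tables give Acaa1a a merged locus with 6 listed genes, the annotation places Slc22a14 and Myd88 across it on the opposite strand, and Acaa1b is a close relative, so its counts are uncertain. Acaa1b itself had a log2 ratio of -0.35 for the first pair, and 2 IP and 0 IgG fragments for WT4, which bound nothing.

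Scp2 (ENSMUSG00000028603, chromosome 4, 108043839 to 108144998, minus strand) encodes both the thiolase for branched substrates and sterol carrier protein 2. It gave 1808 fragments in IP and 1909 in IgG for the first pair, then 281 and 47 for WT4. IP over IgG was 0.806 (0.755 to 0.860) and then 1.61 (1.18 to 2.24). The WT4 direction turned with the unit: in FPKM the IP library stood at 102 and the IgG library at 117 there, for a log2 ratio of -0.19 against 0.68 from counts. The locus listed for Scp2 also holds Podn, which overlaps it on the same strand, so that its counts are uncertain too.

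**Figure D2:**
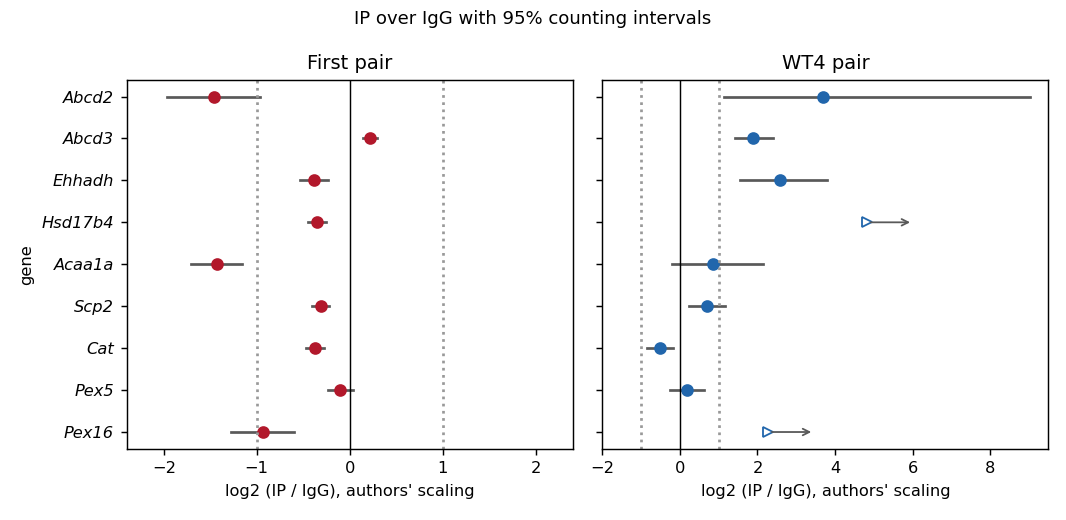
IP over IgG on a log2 scale in each pair, as points with 95% exact binomial intervals that cover counting error only. Open triangles with arrows are values against a floor of 3 fragments for Hsd17b4 and Pex16, which take the IP count as exact, and dotted lines mark 2-fold. In the first pair 7 intervals lie below 0 and that of Abcd3 above it. In the WT4 pair 6 intervals or bounds lie above 0 and the interval of Cat below it. How many of all genes tested have such intervals was not computed. Of all genes tested, 51.2% had a log2 ratio below 0 in the first pair and 65.8% one above 0 in the WT4 pair.

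Cat (ENSMUSG00000027187, chromosome 2, 103453849 to 103485160, minus strand), catalase, was lower in IP in both pairs. It gave 1563 fragments in IP and 1725 in IgG for the first pair, then 263 and 102 for WT4, the most of the 9 in the WT4 IgG library. The ratios were 0.771 (0.720 to 0.826) and 0.695 (0.551 to 0.882). Its mean log2 ratio was -0.45 ± 0.11 (SD, n = 2 pairs), or -0.25 with TMM factors and -1.02 when centred, and it did not pass edgeR's test (log2 fold change -0.45, unadjusted p = 0.462, adjusted p = 1.0). Catalase carries a variant import signal, visible above in the middle capital codon.

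Of the assembly factors, Pex5 (ENSMUSG00000005069, chromosome 6, 124396816 to 124415067, minus strand), the receptor that reads C-terminal import signals, gave 975 fragments in IP and 889 in IgG for the first pair, then 230 and 55 for WT4. Its level ran from 137 to 158 scaled CPM over the 4 libraries, but its FPKM ran from 24.1 to 45.3. The ratio was 0.933 (0.851 to 1.02) and 1.13 (0.837 to 1.54), and both intervals include 1. The mean log2 ratio was 0.04 ± 0.19 (SD, n = 2 pairs).

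Pex16 (ENSMUSG00000027222, chromosome 2, 92374676 to 92381217, plus strand), a membrane protein that recruits Pex3 and is needed to form peroxisomal membranes, gave 118 fragments in IP and 192 in IgG for the first pair, then 54 and 0 for WT4. Its ratio was 0.523 (0.412 to 0.661) for the first pair. For WT4 it was 4.85-fold against the floor, with an exact binomial lower limit of 3.81. Of the 5696 genes with 10 to 50 scaled CPM in the other 3 libraries, the range in which Pex16 lies, 42.1% were at 0 in the WT4 IgG library. In FPKM the first-pair ratio of Pex16 passed the 2-fold line (12.95 in IP and 30.2 in IgG, log2 ratio -1.16), which it missed on scaled CPM at -0.89. Pex16 shares its listed locus with Gyltl1b. The counts of Pex16 in the IP libraries were the only 2 of the members' 34 values above 0 that did not lie within 0.05 of a whole number of fragments, so they are estimates.

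**Figure D3:**
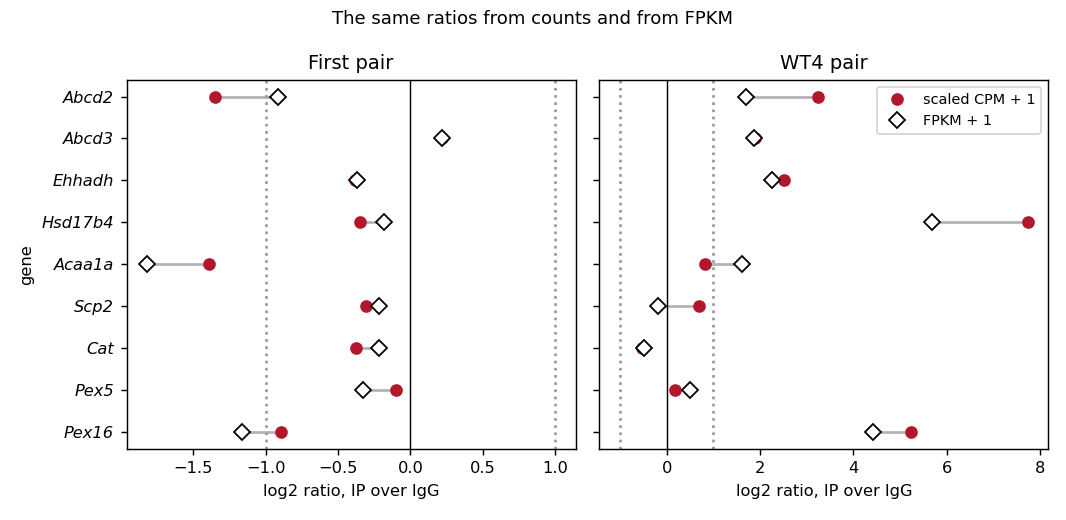
Log2 ratio of IP over IgG in each pair from scaled CPM plus 1 (red circles) and from the authors' FPKM plus 1 (white diamonds), joined by a line for each gene. In the WT4 pair Scp2 moves from 0.68 to -0.19, and in the first pair Pex16 crosses the dotted 2-fold line on the left while Abcd2 crosses it back.

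Levels between genes are compared per length, in FPKM, and across pairs only side by side, since each table was normalized separately. Scp2 was the highest of the 9 in every library, from 102 to 193 FPKM. In both libraries of the first pair the order after it was Cat, Abcd3, Hsd17b4, Pex5 and Ehhadh, with Acaa1a and Pex16 next and Abcd2 last at 1.02 and 2.79 FPKM. In the WT4 IP library Abcd3 and Hsd17b4 stood above Cat, which was at 37.7 FPKM, and Abcd2 was again last. In the WT4 IgG library Hsd17b4 and Pex16 were listed at 0. Library by library, Scp2 stood above Cat, Abcd3 above Hsd17b4, Pex5 above Ehhadh, Ehhadh above Pex16, and Acaa1a above Abcd2 in 4 of 4. Cat stood above Abcd3 and Hsd17b4 above Pex5 in 3 of 4, and Pex16 above Acaa1a in 2 of 4, so those neighbours had no fixed order.

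The transcript models of the 9 genes ran from 1392 to 5532 bases with a median of 2684, beside a median of 2996 over the 96.5% of tested genes with a model. Their GC content ran from 41.6% to 60.1% with a median of 48.7%, beside 50.1%, and they had a median of 13 exons, beside 8. Pex16 and Acaa1a were the shortest and richest in GC.

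**Figure D4:**
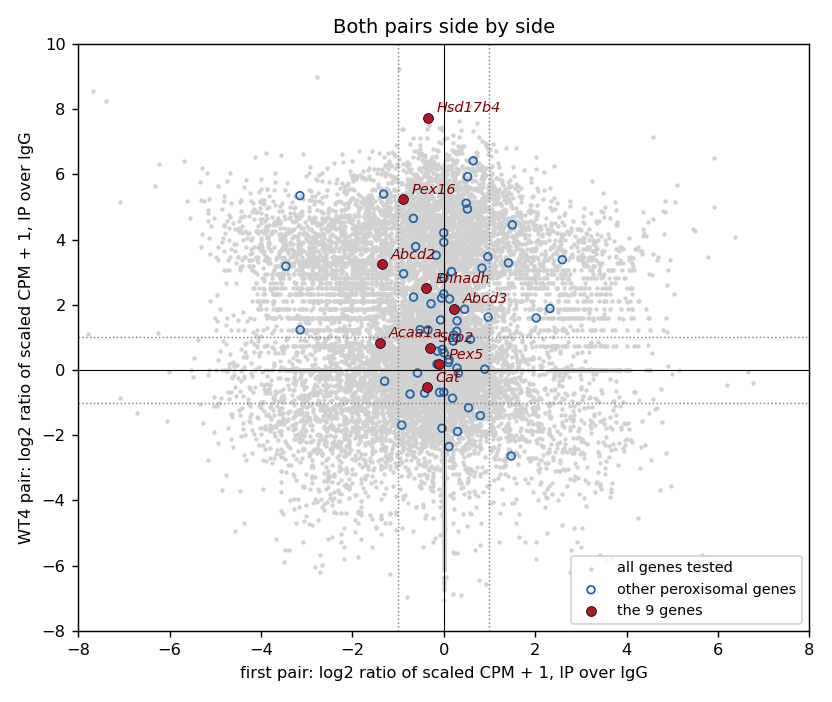
Log2 ratio of IP over IgG in the first pair (horizontal) and in the WT4 pair (vertical) for all genes tested (grey), the other peroxisomal genes (blue circles) and the 9 genes (red). Most of the 9 lie left of 0 and above it, Abcd3 lies right of 0, Cat lies below 0, and no member lies beyond the dotted 2-fold lines in the upper right or lower left corner.

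Other peroxisomal genes were taken from 4 lists with 62 tested genes. For the first pair their median log2 ratio was 0.11, where 6 were at least 2-fold higher (13.3% of all genes) and 5 at least 2-fold lower (26.9%), and for WT4 it was 1.37, where 36 were higher (51.6%) and 7 lower (19.3%). In both pairs 5 were 2-fold higher (7.19% of all genes) and 0 were 2-fold lower (5.25%). In the WT4 IgG library 21 of the 62 were at 0, as were 43% of all genes tested. None passed edgeR's test (smallest unadjusted p = 0.0141, adjusted p = 1.0). Among these 62, the genes nearest to the medians of the 9 genes over the 2 pairs were Ech1, a dienoyl-CoA isomerase (-0.28 and 2.03, distance 0.176), Tmem189, the plasmalogen desaturase (-0.66 and 2.24, distance 0.457), and Nudt7, a CoA diphosphatase (-0.05 and 2.21, distance 0.457).

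The other genes of peroxisomal alpha- and beta-oxidation (23 tested) had medians of 0.11 and 1.60. Amacr, the racemase that prepares branched acyl-CoAs, gave 198 fragments in IP and 56 in IgG for the first pair, then 31 and 0 for WT4, 2.79-fold against the floor of 3 fragments. The acyl-CoA thioesterase Acot6 had 168 and 19, then 14 and 0, 1.26-fold against the floor. Acot5 had 11 and 0, then 13 and 0, 3.12-fold and 1.17-fold against the floor. Such values take the IP count as exact, so they are not lower limits: for Pex16 the WT4 value was 4.85-fold and the exact lower limit 3.81. Pecr, an enoyl-CoA reductase, had 25 and 1, then 3 and 0. These 4 genes, Amacr, Acot6, Acot5 and Pecr, were past the 2-fold line in both pairs on the scale with 1 added. All 4 were at 0 in the WT4 IgG library, and of them only Amacr was above 2-fold against the floor there.

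Ether lipid synthesis (5 genes) had medians of 0.00 and 2.24, with the alkylglycerone phosphate synthase Agps at -0.58 and -0.09 and its partner acyltransferase Gnpat at 0.17 and 3.02. Other matrix and membrane genes (17 tested) had 0.21 and 1.23, and the membrane protein gene Pxmp2 was 2-fold higher in both pairs on 50 IP and 4 IgG fragments, then 4 and 0. Its WT4 value was 0.359-fold against the floor, so no increase is bounded there. The other peroxins, listed together with Trim37 and Usp9x (17 genes in all), had 0.00 and 0.32. As for ether lipids, the first value is that of a gene with no fragment in either library. The import ATPase Pex6, whose listed locus holds 39 genes, stood at 0.11 and 0.32, and the deubiquitinase Usp9x at 0.13 and 2.18. Division factors that peroxisomes share with mitochondria (6 genes) had -1.05 and 2.68, with Mief1 at -0.10 and 2.16 and Mief2 at -1.51 and 0.73. Regulators of peroxisomal genes (6 genes) had -0.33 and 1.30, with the nuclear receptor Ppara at 0.00 and 1.14 and the coactivator Ppargc1a at -0.11 and 1.45. In FPKM the WT4 direction of Ppara turned, with 51.0 in IP and 116.5 in IgG. So did that of Pex6 (24.3 and 28.4) and that of Agps (6.86 and 3.30).

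Markers of other cell types moved with the fractions in places. The 6 endothelial markers summed to 738 scaled CPM in IP and 1824 in IgG for the first pair, then to 2084 and 1420 for WT4, with Emcn at 0 in the first IP and the WT4 IgG library. Of these, Tie1 was lower in IP in both pairs (-1.73 and -1.21), so the sums do not stand for each marker. The 5 erythroid markers summed to 154 and 295, then 71.4 and 12.5, and Hba-a2, Hbb-bs and Alas2 at 0 in the WT4 IgG library. The 6 skeletal muscle markers summed to 4586 and 2927, then 1277 and 1335, with Tnnc2 at 0 in the WT4 IgG library. In WT4, 4 of these 6 were higher in IP and 2 lower, with a median log2 ratio of 1.33. The 5 listed macrophage markers summed to 40.2 and 14.2, then 33.8 and 135. Of these Csf1r was at 0 in all libraries but WT4 IP, Cd14 and Itgam were at 0 in the first IP library, and Cd68 was at 0 in both IgG libraries and Lyz2 in that of WT4. The WT4 IgG sum came from Cd14 (30 fragments) and Itgam (24). In WT4, 3 macrophage markers were higher in IP and 2 lower, with a median log2 ratio of 2.51, so these sums do not stand for each marker either. The 6 hepatocyte markers, of a tissue rich in peroxisomes, summed to 40.5 and 54.7, then 16.8 and 80.0, and Alb, Fgb and Serpina1c were at 0 in both WT4 libraries and Apoa1 in WT4 IgG. The part of these cells in the ratios of the 9 genes was not tested.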

How the data were processed

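RNA immunoprecipitation libraries of mouse brown adipose tissue were analysed from 2 deposited tables, 1 per pair. The submitters' processing notes name the mm10 build, HISAT2, Cuffdiff, Cufflinks and cutadapt (1.9.3), in no stated order. Libraries were directional and depleted of ribosomal RNA, per the labels' protocols. Whether strand was used in counting is not stated there. The authors deposited estimated counts, scaled by 1 factor per library, and FPKM.

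Each estimated count was divided by its library's step (0.926, 1.09, 0.731 and 2.71 in the order first IP, first IgG, WT4 IP, WT4 IgG), which brought 94.4% to 97.7% of values above 0 within 0.05 of a whole number of fragments, and was rounded. Scaled CPM is the deposited count per 1000000 of its table's mean library total. Log2 ratios had 1 added. Genes with a mean of at least 1 scaled CPM were tested (16217) with edgeR 4.0.16 (quasi-likelihood, pair as block, library sizes from the authors' scaling, Benjamini-Hochberg, threshold 0.05), with DESeq2 1.42.0 and limma 3.58.1 as alternatives. The pairing comes from the titles and from the tables. Nothing says that the pairs are separate animals, so p-values measure only spread between these libraries, pooled across genes, which may be technical. The pairs also differ in the cold label and in depth, and any effect of these on IP over IgG is part of that spread. An exact test within a pair is not possible with 1 library per fraction. Intervals are exact binomial (Clopper-Pearson, 95%) and cover counting error only. Gene coordinates and models are from GENCODE vM21 (GRCm38, the assembly of mm10), matched by Ensembl identifier and taking the transcript with the longest coding sequence.

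The members and lists were chosen with earlier results of these data known. Named genes are the members, up to 4 genes of each wider list past 2-fold in 1 direction in both pairs or otherwise its 2 most abundant, and the 3 nearest to the members' medians. The edgeR procedure was run on simulated data without a difference between pairs and with dispersions below the 1.47 of the real fit. Those runs cannot say how well it works on these libraries.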

Additional observations from a re-analysis of the deposited data

Results flagged for a closer look

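Abcd2 had log2 ratios of IP over IgG of -1.35 for the first pair but 3.25 for WT4, at least 2-fold in opposite directions, as were 14.6% of all genes tested. In FPKM its first-pair value was -0.91, short of 2-fold, and its WT4 value rests on 1 IgG fragment. The labels differ between these pairs, since cold is given for 1 of them only, and with 1 library per fraction and pair the difference was not tested.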

How the results depend on the processing

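The counts of members 2-fold higher or lower in both pairs stayed at 0 in FPKM, with TMM factors, total fragments, pseudocounts of 0.1 and 5, and centring. The mean of the members' medians ran from 0.18 (centred) to 0.95 (TMM factors), and was 0.23 for members with fragments in all 4 libraries (chosen after seeing the data). Left with 1 pair it was 1.88 (WT4) or -0.37 (first pair). Centred on the median of all genes, 5 members in place of 8 were above 0 in the WT4 pair and Pex5 and Cat were 2-fold lower there. That centring takes 1.17 off each WT4 ratio, more than the medians of genes at the members' levels (0.46 and 0.22). Genes called across both pairs numbered 0 without the replicate block, 3 with DESeq2, 4 with limma on FPKM, and from 0 to 7 with 1 library left out, none of them a member. Leave-one-out edgeR log2 fold changes have no block and so compare separately normalized tables. They ran from -0.33 to 2.51 for Ehhadh, -0.49 to 12.39 for Hsd17b4, -1.11 to 0.60 for Acaa1a, -0.55 to 0.98 for Scp2, -0.65 to 2.97 for Abcd2, -0.054 to 2.23 for Abcd3, -0.065 to 0.14 for Pex5 and -0.34 to 9.26 for Pex16. limma on FPKM gave Scp2 -0.20, and the cause was not tested. The WT4 IgG depth of 360369 fragments limits every WT4 ratio: 5 members had under 10 fragments there.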
